A study of Rattus norvegicus with 12 samples.

Results

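A group of 103 circular RNAs (circRNAs), out of 21914 in the table, was listed in the paraventricular nucleus (PVN) of operated rats and in no unoperated control library. The members were chosen by their own read counts. Each had a count of 0 in the 3 normal control libraries, a count above 0 in 6 or more of the 9 operated libraries, and a highest count under 20. They made up 0.470% of the table. The contrast of controls with operated rats therefore chose them and is described here without a test. The choice left out 3 circRNAs by name (novel_circ_0006485, novel_circ_0005281 and novel_circ_0010129), of which 0 met the count criteria. The table identifies circRNAs by running number, with no coordinates, strand, sequence or host gene, so members are named by identifier and were not placed in the genome.

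A circRNA is a closed RNA loop formed by back-splicing, in which the end of an exon is joined to the start of the same or an upstream exon. Such loops lack free ends, resist exonucleases and are abundant in brain tissue, where many come from genes of synaptic proteins. They are counted from the reads that cross the back-splice junction, which are a small share of a library, so many circRNAs sit close to the limit of detection. The PVN of the hypothalamus drives the hypothalamus-pituitary-adrenal axis, the endocrine arm of the stress response.

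The rats were male Sprague-Dawley animals, 7 weeks old when obtained, and there were 4 groups with 3 libraries in each. Normal control (NC) rats had no operation. Hepatectomy (HT) rats lost part of the left liver lobe under isoflurane. HT+EA rats had the same operation and electroacupuncture, a weak current through needles at the acupoints ST 36 and SP 6, given 24 h before surgery and again directly after it. In the sham group (HT+SEA) the needles were placed at the same points and not connected to the stimulator. All 4 groups were held awake in a restraint device for the same time, so the NC rats were restrained too. Tissue was taken 24 h after the last treatment, and brains were collected together as 1 batch. The methods state that the brain samples did not all come from the same animal, without saying how animals map to libraries. The p-values below measure the spread between these libraries. The table names no gene, so the PVN label could not be checked against marker genes. In bulk tissue, fewer cells of a type and less RNA per cell cannot be told apart.

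Total back-splice counts lay between 134903 and 360524 (median 220991), a ratio of 2.67 between the largest and the smallest library. HT replicate 3 was the smallest library and HT+EA replicate 2 the largest. A library listed between 8679 and 13945 circRNAs. The table held 0 values of 1, so the smallest listed count was 2, and a 0 stands for a circRNA with fewer than 2 reads or one that was not called. For this reason no upper limit was computed from a 0, and no fold is given against a group at 0 throughout. No 2 libraries of a group agreed within sampling noise (chi-square over degrees of freedom, 2.72 to 4.22), and each was counted as a separate sample.

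To describe how the members were distributed, their counts were examined in the 9 operated libraries. Most members just reached the required number of libraries. 74 were listed in 6 operated libraries, 19 in 7, 10 in 8 and 0 in all 9. Of the 10 listed in 8, 4 were missing from HT+SEA replicate 2, 2 from HT+EA replicate 3 and the others from 4 further libraries, 1 each. All 10 were listed in HT+EA replicate 2 and in HT+SEA replicates 1 and 3. Below the threshold, 145 circRNAs with 0 in NC were listed in exactly 5 operated libraries, 308 in 4 and 607 in 3, so the numbers fell steadily across the threshold without a gap at 6.

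The counts themselves were small. Of the 927 values that the members had in operated libraries, 270 (29.1%) were 0, 179 (19.3%) were 2 and 157 (16.9%) were 3. Values of 4 to 9 made up 32.7%, and 18 values (1.94%) reached 10 or more. The median listed value was 3. The highest count of a member had a median of 6 and ran from 3 to 14, and the total over all libraries had a median of 24 and ran from 14 to 57. The limit of 20 on the highest count thus excluded almost nothing. Without it 1 more circRNA, novel_circ_0025913, would have been included.

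**Figure D1:**
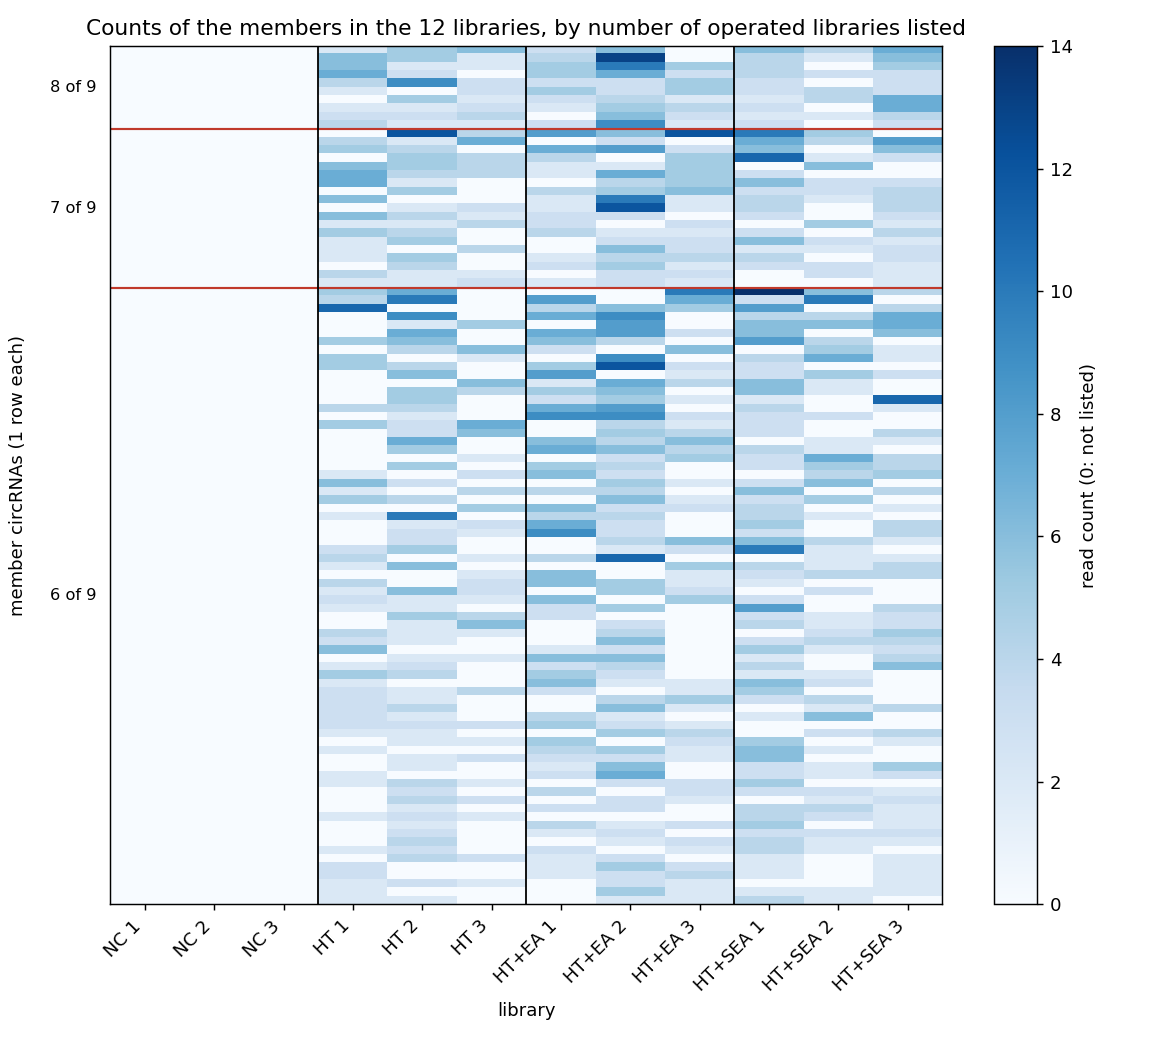
Counts of the 103 members (rows) in the 12 libraries (columns, in the order NC, HT, HT+EA and HT+SEA), with darker blue for a higher read count on a scale from 0 to 14 and red lines between members listed in 8, 7 and 6 of the 9 operated libraries. The NC columns are empty by the choice of members, and the 0 values of the operated columns are scattered over all 3 operated groups.

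The unlisted values were scattered over the operated groups. 101 members were listed in at least 1 library of each operated group and 50 in at least 2 libraries of each. The choice allowed a member at most 3 operated values of 0, so it missed a whole operated group only if all 3 fell there. These numbers are thus largely set by the choice and describe the chosen members only. In HT, 23 members were listed in all 3 libraries, 50 in 2, 30 in 1 and 0 in none. In HT+EA the numbers were 35, 58, 9 and 1, and in HT+SEA they were 36, 54, 12 and 1. All 3 libraries of both HT+EA and HT+SEA listed 6 members, those of HT and HT+EA 8, and those of HT and HT+SEA 5. The 74 members listed in exactly 6 showed 42 of the 84 possible combinations of libraries, and at most 5 of them shared a combination. No single combination of libraries accounted for the group.

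The circRNAs just outside the thresholds were examined next. Among circRNAs under 20 counts that were listed in 6 or more operated libraries, 89 had NC counts that summed to 2, the smallest sum the table allows above 0. Of these, novel_circ_0022088 had counts of 0, 0 and 2 in NC replicates 1 to 3, 6, 8 and 4 in HT, 3, 11 and 5 in HT+EA, and 8, 6 and 3 in HT+SEA. The circRNA novel_circ_0032059 had 0, 2 and 0 in NC, 3, 0 and 9 in HT, 9, 7 and 3 in HT+EA, and 7, 0 and 11 in HT+SEA. A single listing of 2 reads in NC kept both of them out. On the other threshold, novel_circ_0006269 was at 0 in NC and had 6, 10 and 0 in HT, 0, 17 and 0 in HT+EA, and 0, 11 and 10 in HT+SEA. It fell short because 5 rather than 6 operated libraries listed it. The same held for novel_circ_0037092, with 0, 7 and 4 in HT, 8, 0 and 8 in HT+EA, and 0, 0 and 7 in HT+SEA.

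The NC values of the members were also set beside the counts that their operated levels would give at NC depth. The level of a member was taken as its summed operated counts over the summed operated totals. At that level it would have had between 1.59 and 7.45 counts in an NC library. The median was 2.84, close to the smallest listed count of 2. Summed over the 3 NC libraries, the values ran from 5.05 to 20.5 with a median of 8.65. These operated levels include the libraries that the choice required to be above 0, so they are a description of the chosen members only.

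The number of members was then compared with the number that the same rule gives when another group takes the place of NC, with 0 in its 3 libraries and a count above 0 in 6 or more of the remaining 9. The circRNAs left out by name were counted in for this comparison. With HT at 0 the rule gave 260 circRNAs, with HT+EA at 0 it gave 84, and with HT+SEA at 0 it gave 162. NC at 0 gave 103. The absence of a low-count circRNA from a whole group was thus found for every group, and 2 of the 3 operated groups lacked more circRNAs than the controls did. The order of the numbers was the reverse of the order of the group totals, which were 566182 counts in HT, 628286 in HT+SEA, 715764 in NC and 791430 in HT+EA.

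The share gave the same order. Of the 5006 low-count circRNAs listed in 6 or more operated libraries, 103 (2.06%) were in 0 of the 3 NC libraries, 540 (10.8%) in 1, 1396 (27.9%) in 2 and 2967 (59.3%) in all 3. With HT as the group examined, 4.77% of 5448 circRNAs were in none of its libraries and 42.8% in all 3. With HT+SEA these shares were 3.09% and 52.1% of 5242, and with HT+EA they were 1.71% and 61.9% of 4899. Members were the lower tail of a spread in which most low-count circRNAs of operated rats were also listed in NC.

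**Figure D2:**
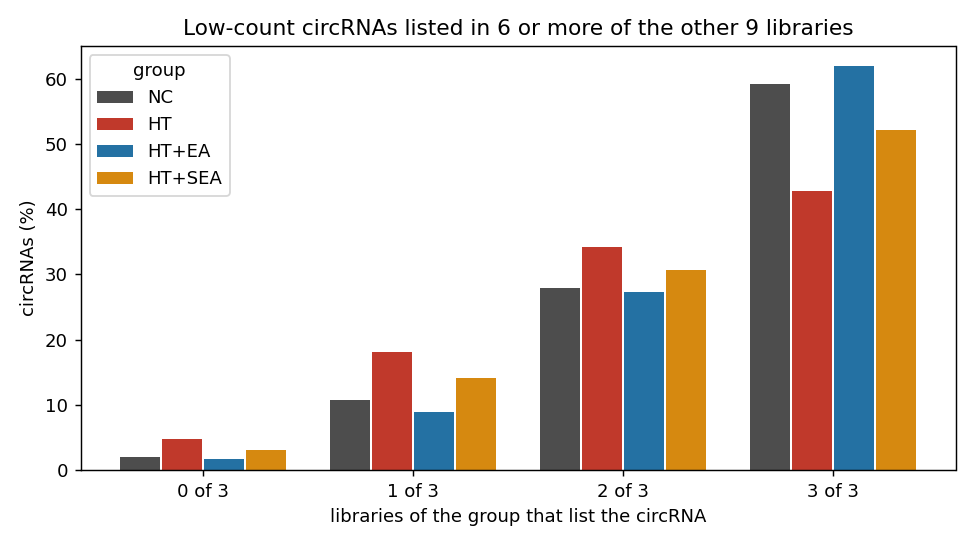
Share of low-count circRNAs (%, vertical axis) listed in 0, 1, 2 or 3 libraries of a group (horizontal axis), among circRNAs with a highest count under 20 that were listed in 6 or more of the other 9 libraries. The leftmost bars are the circRNAs at 0 in a whole group, 2.06% for NC (the members) against 4.77% for HT, 1.71% for HT+EA and 3.09% for HT+SEA.

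The rule was next applied to each of the 220 sets of 3 of the 12 libraries, whatever their groups. The number of circRNAs ran from 38 to 427 with a median of 141. Of the 219 sets other than NC, 157 gave as many circRNAs as NC or more and 62 gave fewer, so the number of members lay in the lower part of the range. The lowest number came from HT+EA replicate 2, HT+EA replicate 3 and HT+SEA replicate 1, which together held 834960 counts. The highest came from HT replicate 1, HT replicate 3 and HT+SEA replicate 2, with 495995 counts. Sets that held HT replicate 3, the smallest library, had a median of 236 circRNAs, and sets that held HT+EA replicate 2, the largest, had a median of 75. The sets share libraries and are not independent of each other, so their order is given as a description and no p is attached to it.

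Depth was therefore made equal. Each library was reduced to the 134903 counts of the smallest, and the expected number of circRNAs meeting the rule was computed exactly, with reduced values of 1 set to 0 as in the table. The expected number was 119 with NC at 0, 156 with HT, 129 with HT+EA and 134 with HT+SEA. The range over the 220 sets narrowed to 103 to 186, with a median of 135. Of the other 219 sets, 191 gave as many as NC or more and 28 gave fewer. NC had the lowest number of the 4 groups at equal depth. When reduced values of 1 were kept as listed, the numbers were 106 for NC, 239 for HT, 108 for HT+EA and 155 for HT+SEA, and 173 of the other sets gave as many as NC or more. The range over the sets was then 61.0 to 348 with a median of 141. HT replicate 3 kept its deposited counts and so held no value of 1, while the other libraries could be listed at 1. The smallest listed count thus differed between libraries in this variant. Its range therefore cannot show whether the narrowing depends on how reduced values of 1 are treated.

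**Figure D3:**
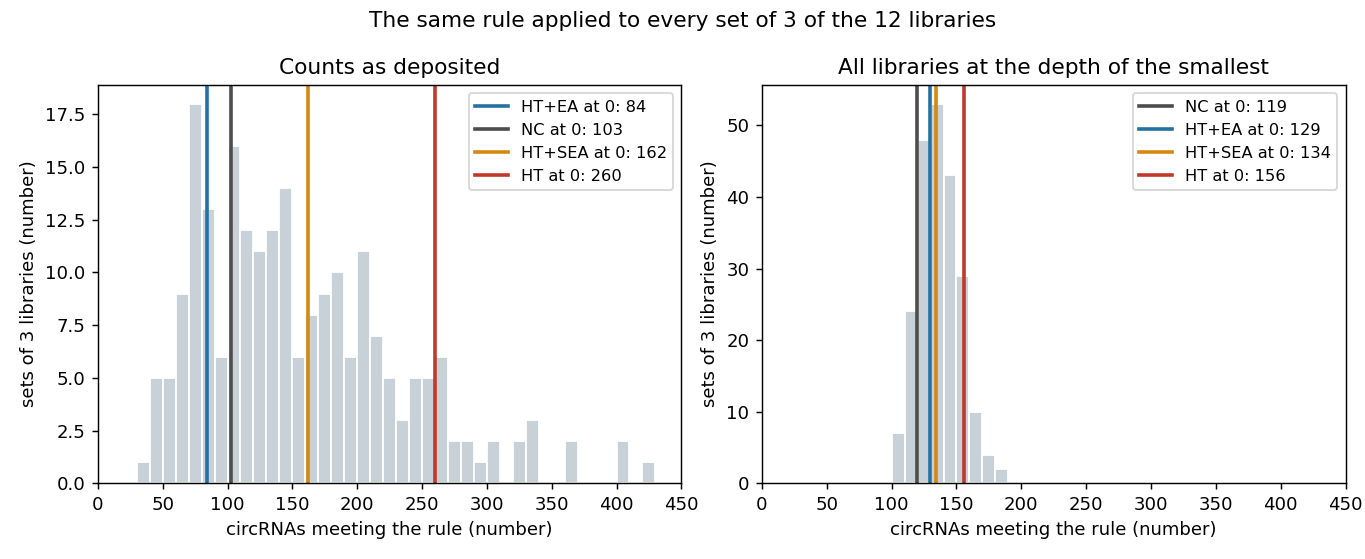
Number of circRNAs meeting the rule (horizontal axis) for the 220 sets of 3 libraries (bars, number of sets), with the counts as deposited at the left and all libraries at the depth of the smallest at the right, and coloured lines for the sets that are 1 group. NC, at 103 and 119, lies below the medians of 141 and 135, and the spread is narrower at equal depth with reduced values of 1 set to 0.

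Most of the circRNAs expected to meet the rule at equal depth were not members. Of the 103 members, 24 were expected still to meet the rule at equal depth, and the other 95.1 circRNAs of the expected number came from outside the group. The rule was also applied to the full table without HT replicate 3, with 6 or more of the 8 libraries outside the set at 0 required. It was met by 72 circRNAs with NC at 0, 51 with HT+EA and 124 with HT+SEA. The 165 sets of 3 of those 11 libraries gave 25 to 227 circRNAs (median 88), and 103 of the other 164 sets gave as many as NC or more.

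To see how the members varied among operated libraries, their listing and summed level were compared with depth. In HT replicates 1 to 3, 65, 83 and 51 members were listed. In HT+EA the numbers were 72, 88 and 70, and in HT+SEA they were 88, 66 and 74. HT had a mean of 66.3 ± 16.0 members (SD, n = 3), HT+EA one of 76.7 ± 9.87 members (SD, n = 3) and HT+SEA one of 76.0 ± 11.1 members (SD, n = 3), and the groups overlapped. The fewest members were in the smallest library, and the most were in the largest library and in HT+SEA replicate 1, with 258005 counts. The highest count of a member, with ties counted for each library, fell in HT+EA replicate 2 for 33 members, in HT+SEA replicate 1 for 22 and in HT replicate 3 for 5. The smallest and the largest library were also the extremes for low-count circRNAs as a class, although the order between them differed. Of the 3810 circRNAs under 20 counts that were listed in 6 to 9 of the 12 libraries, HT replicate 3 listed 41.1% and HT+EA replicate 2 listed 82.4%, and the 3 NC libraries listed 62.7%, 66.5% and 67.4%. The NC libraries thus listed this class at shares within the range of the operated libraries.

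The summed level of the members, scaled to library totals, overlapped between operated groups. The sum, in CPM (counts relative to the library total), was 1297, 1304 and 1282 in HT replicates 1 to 3, 1445, 1223 and 1146 in HT+EA, and 1454, 1273 and 1411 in HT+SEA. The means were 1294 ± 10.9 (SD, n = 3), 1271 ± 155 (SD, n = 3) and 1379 ± 94.4 (SD, n = 3). The HT libraries lay inside the range of HT+EA.

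**Figure D4:**
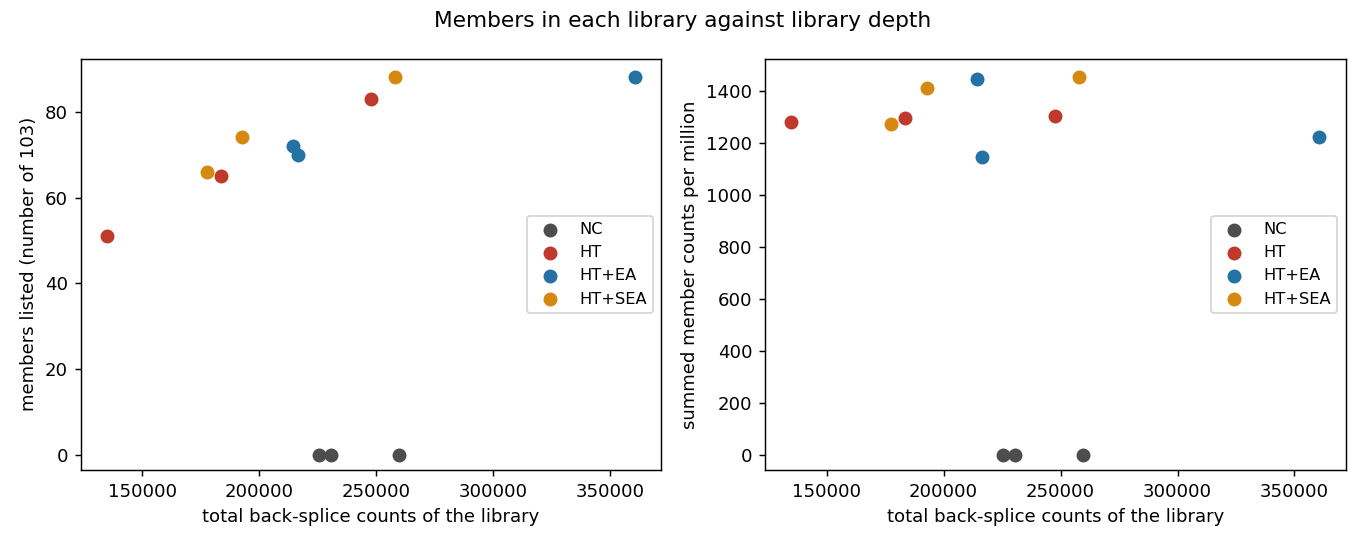
Members listed (left, number of 103) and summed member CPM (right) against the total back-splice counts of each library, 1 point per library and 1 colour per group. Among operated libraries the number listed rises from 51 at the smallest total to 88 at the largest, while the summed level stays between 1146 and 1454, and the NC points lie at 0 by the choice of members.

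Members were of low abundance among the circRNAs tested. Their mean level over operated libraries ran from 6.91 to 28.7 CPM, here scaled by TMM factors, with a median of 12.3, against a median of 19.2 for the 13492 circRNAs tested, and 35.7% of those tested lay below the members' median. The coefficient of variation over the 9 operated libraries ran from 52.5% to 128% with a median of 85.9%. All 103 members passed the filter of a mean count of at least 1 over the 12 libraries. Under edgeR's filterByExpr, which asks for more counts, 4838 circRNAs passed and 0 of them were members.

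The effect of electroacupuncture and of sham needling on the members was addressed by the contrasts among operated groups. The choice of members took the 9 operated libraries together and did not compare these groups, but it restricts their values. No member could be at 0 in more than 3 operated libraries, and a member at 0 in a whole operated group had to be listed in all 6 libraries of the others. In the edgeR fit of all 12 libraries, 1 of 103 members (0.971%) passed an unadjusted p below 0.05 in HT+EA against HT, and 3.89% of all circRNAs tested did. The member was lower in HT+EA, and of all circRNAs tested 2.48% were called higher and 1.41% lower. In HT+SEA against HT 1 member passed, lower in HT+SEA, against 3.31% of all tested, with 2.03% higher and 1.28% lower. In HT+EA against HT+SEA 2 members (1.94%) passed, 1 higher and 1 lower in HT+EA, against 3.29% of all tested, with 1.74% higher and 1.55% lower. The test for any difference among the 3 groups called 0 members by edgeR at an unadjusted p below 0.05, against 2.84% of all tested, whereas DESeq2 called 1 and limma-voom 5. DESeq2 called 2, 1 and 3 members in the 3 contrasts, against 2.67%, 2.43% and 2.29% of all tested, and limma-voom called 4, 5 and 8, against 6.94%, 5.43% and 6.59%. These counts are too few to set the members apart from the other circRNAs. No member passed an adjusted p below 0.05 in any of them with edgeR, DESeq2 or limma-voom. Of all circRNAs tested with edgeR, the share past the adjustment was 0.00741% for HT+EA against HT and 0.00741% for HT+SEA against HT. It was 0% for HT+EA against HT+SEA and 0.0148% for any difference. The smallest adjusted p of a member in edgeR was 0.929 in HT+EA against HT and 1 in the other contrasts.

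The fitted differences lay on both sides of 0. In HT+EA against HT, 55 members had a positive and 48 a negative log2 fold change. The numbers were 58 and 45 in HT+SEA against HT, and 52 and 51 in HT+EA against HT+SEA. Over members with counts in both groups compared, the median log2 fold change was 0.14 in HT+EA against HT (102 members), 0.24 in HT+SEA against HT (102 members) and 0.01 in HT+EA against HT+SEA (101 members). Over all circRNAs tested with counts in both groups, the medians were 0.08, 0.04 and 0.04. The standard error of a single member's log2 fold change had a median of 1.89, 1.90 and 1.86 in the same order. It describes the error of 1 member and not that of the median over members. HT+EA against HT and HT+SEA against HT use the same HT libraries. In the contrast that chose the members, operated against NC, 3.64% of all circRNAs tested were called at an unadjusted p below 0.05, 1.16% higher and 2.48% lower, and 0.0148% passed the adjustment. No test of the members is given there.

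The 8 members with the highest mean CPM over operated libraries had counts as follows, with NC at 0 in each. The most abundant, novel_circ_0016341 (28.7 CPM), had 0, 12 and 4 counts in HT replicates 1 to 3, 8, 6 and 12 in HT+EA, and 10, 5 and 0 in HT+SEA. Its highest values were shared by HT replicate 2 and HT+EA replicate 3, and the groups overlapped. The next, novel_circ_0030959 (23.8 CPM), had 5, 7 and 0 in HT, 0, 0 and 10 in HT+EA, and 14, 6 and 4 in HT+SEA. Its count of 14 in HT+SEA replicate 1 was the highest of any member, yet 2 HT+EA libraries did not list it. For novel_circ_0021010 (22.5 CPM) the counts were 4, 10 and 0 in HT, 8, 0 and 7 in HT+EA, and 3, 10 and 0 in HT+SEA. Each operated group held 1 library at 0 and 1 at 8 or more.

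The circRNAs novel_circ_0018254 and novel_circ_0016453 were each listed in 8 operated libraries, and HT+EA replicate 3 was the one without them. The first (20.8 CPM) had 2, 5 and 6 counts in HT, 3, 6 and 0 in HT+EA, and 6, 4 and 7 in HT+SEA. The second (20.4 CPM) had 6, 5 and 2 in HT, 4, 13 and 0 in HT+EA, and 4, 2 and 6 in HT+SEA. Their groups overlapped. For novel_circ_0034151 (19.3 CPM) the counts were 6, 2 and 2 in HT, 5, 10 and 5 in HT+EA, and 4, 0 and 5 in HT+SEA. The HT+EA libraries were the most even here, and they still overlapped with the other groups. For novel_circ_0034192 (19.2 CPM) the counts were 11, 0 and 0 in HT, 4, 6 and 5 in HT+EA, and 8, 0 and 4 in HT+SEA. One HT library held all of the HT reads.

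The remaining one of the 8, novel_circ_0000381 (19.8 CPM), was the only member among the 44 node circRNAs that the study chose from these samples for its circRNA-miRNA-mRNA network. That list is not independent evidence of a direction. The counts were 4, 2 and 7 in HT, 0, 3 and 0 in HT+EA, and 7, 4 and 8 in HT+SEA. HT had a mean level of 25.8 ± 19.8 CPM (SD, n = 3), HT+EA one of 3.04 ± 5.27 CPM (SD, n = 3) and HT+SEA one of 30.5 ± 9.43 CPM (SD, n = 3). The 3 HT+SEA counts lay above the 3 HT+EA counts, whereas HT and HT+EA overlapped in counts. In edgeR the log2 fold change of HT+EA against HT was -2.68 (SE 1.5, adjusted p = 0.929) and that of HT+EA against HT+SEA was -2.94 (SE 1.49, adjusted p = 1). Neither passed an unadjusted p below 0.05. Of 20 alternatives, 3 passed it in the first contrast and 5 in the second. DESeq2, limma-voom and leaving out HT+EA replicate 2, the only HT+EA library with a count, passed it in both. The fit of the operated libraries alone and the fit without NC replicate 1 passed it in the second only. The adjusted p over the alternatives ran from 0.615 to 1 and from 0.417 to 1.

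Only 2 members were at 0 in a whole operated group as well as in NC, and they were the members called among the operated groups. The choice of members required both to be listed in the 6 remaining operated libraries, so the contrast of a group at 0 with 2 groups above 0 is partly set by it. The first, novel_circ_0008564, had counts of 2, 3 and 2 in HT, 0 in each HT+EA library, and 4, 3 and 2 in HT+SEA. It was lower in HT+EA than in HT at an unadjusted p below 0.05 (edgeR, adjusted p = 0.929) and lower than in HT+SEA (adjusted p = 1). The second, novel_circ_0037033, had 3 counts in each HT library, 5, 3 and 2 in HT+EA, and 0 in each HT+SEA library. It was lower in HT+SEA than in HT at an unadjusted p below 0.05 (edgeR, adjusted p = 1) and higher in HT+EA than in HT+SEA (adjusted p = 1). The calls rest on few reads, with 16 counts in all for novel_circ_0008564 and 19 for novel_circ_0037033. For novel_circ_0008564 the call in HT+EA against HT was lost when any 1 of the 12 libraries was left out. The other 3 calls were kept when an NC library was left out and lost when any of the 9 operated libraries was left out. Over all alternatives the adjusted p of these 4 calls was never below 0.417.

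In the contrasts with HT, the members with the smallest p among those with a positive difference did not pass the threshold. For novel_circ_0029095, counts were 0, 2 and 0 in HT, 9, 9 and 3 in HT+EA, and 3, 3 and 0 in HT+SEA. The 3 HT+EA counts lay above the HT counts, and the log2 fold change of HT+EA against HT was 2.95 (SE 1.84, adjusted p = 0.929 by edgeR). For novel_circ_0012796, counts were 0, 0 and 2 in HT, 0, 3 and 5 in HT+EA, and 3, 7 and 4 in HT+SEA. Its 3 HT+SEA counts lay above the HT counts, and the log2 fold change of HT+SEA against HT was 2.37 (SE 1.96, adjusted p = 1 by edgeR). For each of these, 1 of 20 alternatives gave an unadjusted p below 0.05.

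**Figure D5:**
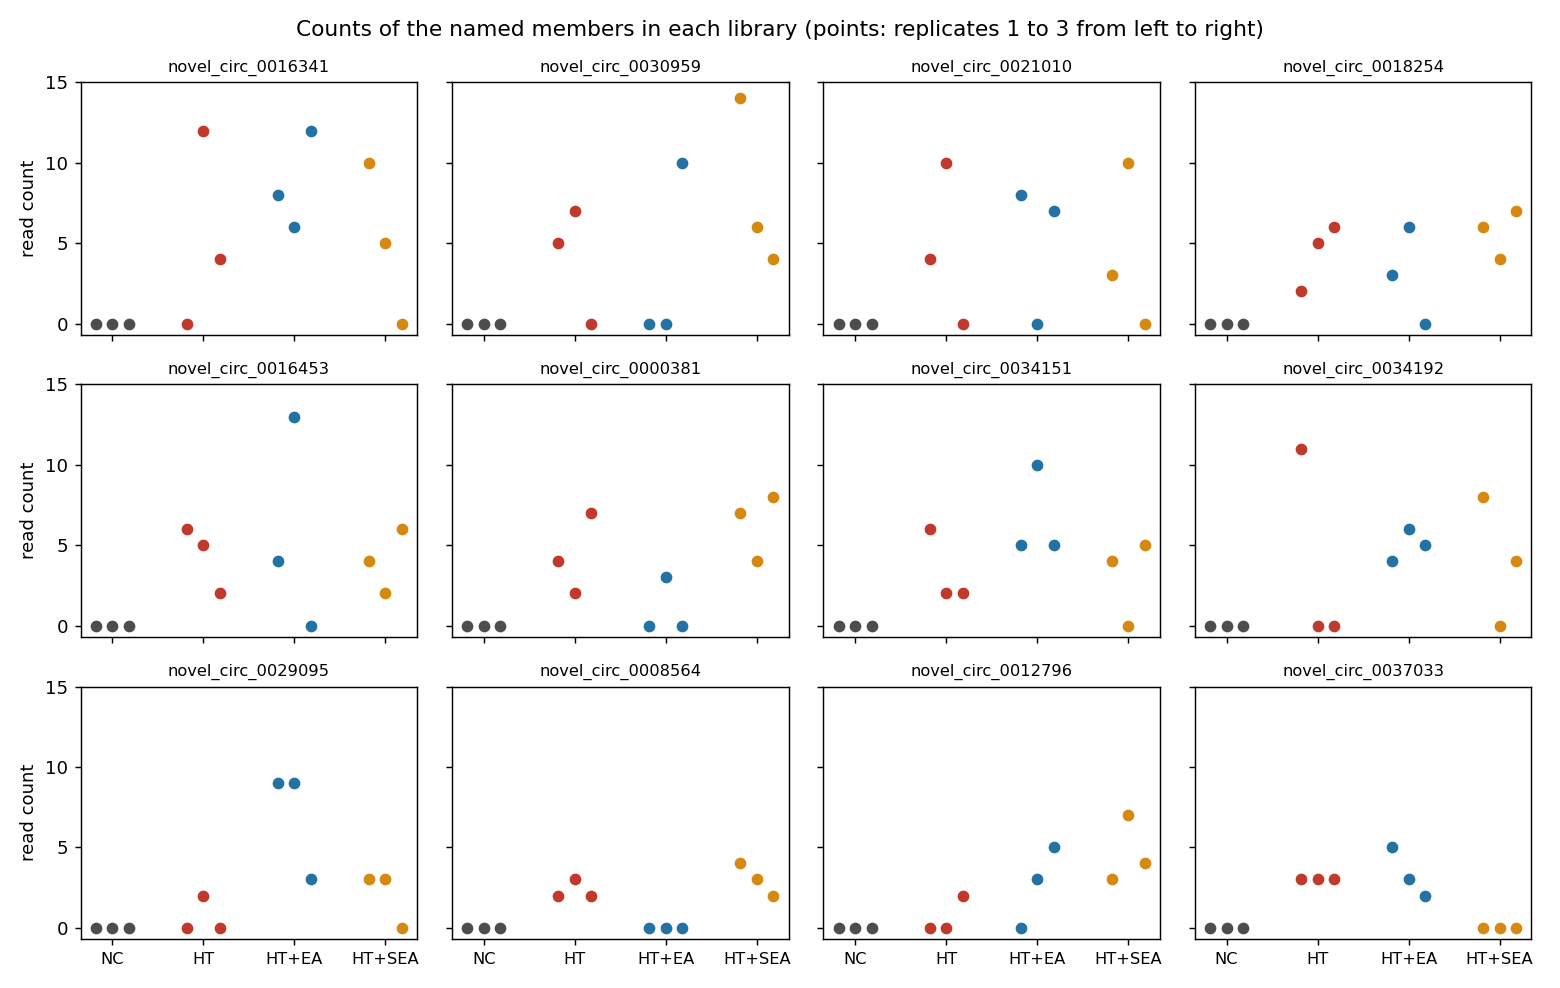
Read counts of the 12 named members in NC, HT, HT+EA and HT+SEA (horizontal axis, replicates 1 to 3 from left to right within a group). Points of different operated groups overlap in most panels, and novel_circ_0008564 and novel_circ_0037033 are the panels with a whole operated group at 0.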

How the data were processed

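Total RNA of the PVN was made into strand-specific libraries and sequenced on Illumina HiSeq instruments, and the authors filtered out low-quality reads and those with adapter sequence or uncertain bases. The authors deposited raw back-splice read counts of each circRNA in each library, not normalized and not pooled. The submitters' processing notes list HISAT2 and featureCounts without a role, and the program that called the circRNAs is not given in the sources used here. Methods name the rat assembly mRatBN7.2, the submitters' processing notes name GRCh38 and hg38, which are human, and no coordinates were used. The table's 12 TPM columns were left aside, since the names of some match no sample label.

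Groups came from the sample labels. The members, the tests and the list of node circRNAs were chosen with earlier results of these data known. Numbers of circRNAs meeting the rule were counted in Python (version 3.11.15, numpy 2.4.6, pandas 2.3.3, scipy 1.17.1). For equal depth, libraries were reduced to 134903 counts without replacement and the expected number was computed exactly. The tests on counts used edgeR (4.0.16, under R 4.3.3), by glmQLFit and glmQLFTest, two-sided, with TMM factors (0.933 to 1.11), 4 groups and all 12 libraries in 1 fit. Because filterByExpr keeps none of the members, the filter was a mean count of at least 1 over the 12 libraries. It left 13492 circRNAs (61.6%) with 97.8% to 99.0% of the counts of a library, and the common biological coefficient of variation was 56.4%. P-values were adjusted by Benjamini-Hochberg over all circRNAs tested. The study used DESeq2 at p below 0.05 without stating an adjustment, so unadjusted calls are given too. Standard errors were derived from the F statistics. Alternatives were DESeq2 (version 1.42.0), limma-voom (limma 3.58.1), other size factors and filters, the operated libraries alone, a replicate block, other thresholds of the rule and leaving out each library. The rule without HT replicate 3 over the other 11 libraries was chosen after seeing the data. The scripts were tested on simulated data.

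Members were named if they were among the 8 with the highest mean CPM over operated libraries, listed in all 9 operated libraries (0 were), had the smallest p in either direction of a contrast or in the test for any difference, were at 0 in a whole operated group, or were on the list of node circRNAs. The circRNAs just outside a threshold were named by highest mean CPM, at most 2 for each. Library totals count back-splice reads alone, and reads without molecular identifiers are not independent molecules.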

Additional observations from a re-analysis of the deposited data

How the results depend on the processing

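Counts of 2 to 14 reads and 3 libraries per group limit all of these results, and a 0 marks fewer than 2 reads or no call. The number of circRNAs at 0 in NC moved with the number of operated libraries required and with the number of libraries used. With 5 or more it was 248, with 7 or more 29 and with all 9 it was 0. The numbers were 544, 123 and 9 with HT at 0, 209, 31 and 2 with HT+EA, and 357, 68 and 3 with HT+SEA. Other count limits left the NC number between 89 and 104. At equal depth it was 119, and the numbers with HT and HT+EA at 0 became 156 and 129. Over the 11 libraries without HT replicate 3, HT+EA gave 51 and 103 other sets gave as many as NC or more. Leaving out 1 library moved the NC number between 40 and 306, above 270 without an NC library and at most 72 without an operated one.

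Members called at an unadjusted p below 0.05 stayed few under each alternative. DESeq2 called 2 in HT+EA against HT, 1 in HT+SEA against HT, 3 in HT+EA against HT+SEA and 1 for any difference, against 2.67%, 2.43%, 2.29% and 2.36% of all circRNAs tested. With limma-voom 4 were called in HT+EA against HT, 5 in HT+SEA against HT, 8 in HT+EA against HT+SEA and 5 for any difference, against 6.94%, 5.43%, 6.59% and 6.77% of all circRNAs tested. A mean count of at least 2 left 56 members and 0 calls in each test. The shares of all circRNAs tested were 4.26%, 3.68%, 3.47% and 2.79%, in the same order. No filter gave 0, 1, 0 and 0 calls, against 3.02%, 2.72%, 2.44% and 2.60% of all tested. Leaving out 1 library gave 0 to 1 calls in HT+EA against HT, against 3.03% to 4.68% of all circRNAs tested. It gave 0 to 1 in HT+SEA against HT (2.78% to 4.05% of all tested) and 0 to 3 in HT+EA against HT+SEA (2.64% to 3.26%). For any difference it gave 0 to 1 (2.32% to 3.36%). These member counts are too few to set the members apart from the other circRNAs. No alternative gave a member an adjusted p below 0.05, and filterByExpr left no member to test. The cause of these changes was not tested.

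The replicate numbers of the labels did not pair the libraries. Deviations from the group means correlated between -0.0350 and 0.0497 over 18 pairs of the same number, and between -0.0449 and 0.05 over 36 pairs of different numbers. With the replicate number as a block, 0 members were called in each of the 4 tests. Of all circRNAs tested, 3.14%, 2.64%, 2.52% and 2.34% were called, in the same order as above.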

Other observations

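The mirrored rule asks for circRNAs listed in all 3 libraries of 1 group and at 0 in the other 9, again with a highest count under 20. It gave 6 circRNAs for NC, 3 for HT, 21 for HT+EA and 3 for HT+SEA. Over the 220 sets of 3 libraries it gave 0 to 41 with a median of 6. The set for HT+EA includes HT+EA replicate 2, the largest library. The mirrored rule was not applied at equal depth, and the cause of the HT+EA number was not tested. Low-count circRNAs listed in the controls alone were thus as many as in the median set.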
